A study of Mus musculus with 8 samples.

Results

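The genes described here set the mouse lines PLA and PL12 against PLA4 and PL1. A gene was a member where its level differed in 1 direction over the 4 line pairs (PLA with PLA4, PLA with PL1, PL12 with PLA4 and PL12 with PL1). Of 55487 genes in the count table, 18648 passed a filter on low counts, and 7123 of these had the same sign in all 4 pairs. Within them, 734 genes also had a Benjamini-Hochberg adjusted p under 0.05 in all 4 pairs in edgeR's quasi-likelihood test. These 734 are referred to as the called genes. Both sets were chosen by the measured contrast itself, so every difference between the sides is given as a description, without a test.

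The study measured bulk RNA in 4 lines of murine lung squamous cell carcinoma (LUSC) that came from genetically engineered mice, and it concerned loss of ACKR3. Each line had 2 libraries. The labels name the lines PLA, PLA4, PL1 and PL12 and give no treatment, time, strain, genotype or meaning of the letters, nor do they say whether a line is 1 clone. All 4 lines share the tumour type and the origin in engineered mice, and they carry no matched untreated control. Whether both libraries of a line stem from separate cultures is not labelled, and the p-values then measure no more than library-to-library spread, possibly technical. The split crosses ACKR3 status: each side holds 1 line in which Ackr3 was nearly silent and 1 in which it was measured. Ackr3, the gene of an atypical chemokine receptor that removes CXCL12, stood at 0.0487 and 0.0254 CPM in PLA, 25.3 and 26.3 in PL12, 0.387 and 0.228 in PLA4 and 86.3 and 33.2 in PL1. It is therefore no member of the split.

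Squamous carcinomas of the lung keep features of the basal cells of stratified epithelium: the transcription factor p63, the keratin pair of basal cells, desmosomes and hemidesmosomes. Luminal and glandular epithelium instead makes simple keratins, mucins and apical surface proteins, and its cells are polarised by tight junctions. Tumour lines can also carry genes of mesenchymal cells, such as fibrillar collagens and matricellular proteins. Genes of these programmes were read here beside signalling pathways known from epithelial tumours.

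The libraries held 48857960 to 142458281 counts, so that 3 counts correspond to 0.0614 CPM in the shallowest and 0.0208 CPM in the deepest. CPM are counts scaled to a common library size by TMM. Across genes, PLA4 correlated best with PL1 (0.972), while PLA and PL12 (0.931) lay within the range of the 4 pairs across the split (0.927 to 0.949). Genes are not independent replicates in these values. The squamous label was met by Krt5, Krt14 and Trp63 in PLA, PLA4 and PL1, while PL12 was lower in all 3 (Krt5 284 and 315 CPM against 2645 to 6542 elsewhere). In bulk samples, fewer cells of a type and less RNA per cell cannot be told apart. Stk11, a kinase gene often lost in lung tumours, stood at 15.4 to 28.9 CPM over the libraries. Markers of the sexes differed within the sides as well, with Xist at 208 and 385 CPM in PLA4 and at most 0.245 CPM in the other lines, and Ddx3y of chromosome Y at 3.61 to 86.1 CPM in these and at most 0.0155 CPM in PLA4. The libraries of PLA and of PL12 were close to each other, whereas those of PLA4 and of PL1 were not: 7.59% of the genes tested were over 2-fold apart between the PLA4 libraries and 6.30% between the PL1 libraries. PL1 replicate 2 and PLA4 replicate 1 lay closer to PLA and PL12 in many genes described below, and values without them are given where they matter.

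Among the genes with the same sign in all 4 pairs, 3452 were higher in PLA and PL12 (18.5% of the genes tested) and 3671 were lower (19.7%). The called genes numbered 432 higher (2.32%) and 302 lower (1.62%). Every library of PLA and PL12 lay above every library of PLA4 and PL1 in 1874 genes (10%) and below in 1563 (8.38%), and all 734 called genes were among these. In the called genes the smallest of the 4 fold changes had a median of 1.32 on the log2 scale where PLA and PL12 were higher and 1.40 where they were lower. It reached 2-fold in 257 higher and 192 lower genes, and 16-fold in 59 higher and 33 lower genes. Protein-coding genes made up 90.97% of the higher and 90.07% of the lower called genes, against 78% of the genes tested. Among genes with the same sign but no call the share was 76.96%. The called genes also had higher levels, with a median of 30.1 CPM in the higher and 17.6 CPM in the lower genes, against 11.6 CPM over all genes tested. The direction was the same in the deposited TPM for 734 of 734, which is no separate support, since TPM and counts stem from the same reads. Without 1 library of PLA or of PL12 the called genes numbered 148 to 188, and without PL1 replicate 2 and PLA4 replicate 1 they numbered 3149, of which 725 were among the 734.

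The called genes nearest to the threshold were Pbp2, with a largest adjusted p of 0.0496 over the 4 pairs, and Prdm14, with 0.0498. Pbp2 stood at 11.05 and 10.6 CPM in PLA and 15.1 and 16.04 CPM in PL12, against 0.596 and 0.588 CPM in PLA4 and 1.99 and 0.150 CPM in PL1. Prdm14, a transcription factor of germ cells and pluripotent cells, stood at 0.154 and 0.262 CPM in PLA and 0.0614 and 0.147 CPM in PL12, against 14.9 and 1.52 CPM in PLA4 and 18.3 and 1.38 CPM in PL1. The PL1 libraries were over 10-fold apart in both genes, and the PLA4 libraries lay far apart in Prdm14 as well. Just outside lay Pml, the organiser of nuclear bodies, with 0.0504, and Lrrc20 with 0.0505. Pml stood at 90.8 and 91.8 CPM in PLA and 72.4 and 74.3 CPM in PL12, against 34.7 and 32.0 CPM in PLA4 and 57.1 and 58.1 CPM in PL1. Its libraries did not overlap between the sides, and the difference was small beside that of most called genes.

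The genes higher in PLA and PL12 are given by their roles, starting at the cell surface. Msln (ENSMUSG00000063011.7, GRCm38 chromosome 17, 25748613 to 25754378) encodes mesothelin, a surface glycoprotein anchored by a lipid. It stood at 129 and 127 CPM in PLA and 454 and 470.1 CPM in PL12, against 0.232 and 0.0346 CPM in PLA4 and 0.219 and 0.115 CPM in PL1. The side means were 295 ± 236 CPM against 0.150 ± 0.0235 CPM (SD over n = 2 lines a side), 1966-fold higher. PL12 carried the higher level of the 2 lines, and no library of PLA4 or PL1 reached 1 CPM. Slc44a4 (ENSMUSG00000007034.15, GRCm38 chromosome 17, 34914466 to 34930436), a transporter of the choline transporter-like family, stood at 35.5 and 34.5 CPM in PLA and 41.1 and 36.3 CPM in PL12, against 0.410 and 0.0692 CPM in PLA4 and 0.0115 and 0.758 CPM in PL1. Its side means were 36.9 ± 2.62 CPM against 0.312 ± 0.103 CPM (SD over n = 2 lines a side), 118-fold higher. PLA and PL12 were nearly level, and PL1 replicate 2 was the highest library of the other side. Slc44a4 differed 73.9-fold without PL1 replicate 1 and 293-fold without PL1 replicate 2.

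Tspan8 encodes a tetraspanin of epithelial membranes and stood at 6.99 and 7.18 CPM in PLA and 83.3 and 77.6 CPM in PL12, against 0.650 and 0.0554 CPM in PLA4 and 0.0690 and 0.458 CPM in PL1. The side means were 43.8 ± 51.9 CPM against 0.308 ± 0.0630 CPM (SD over n = 2 lines a side), 142-fold higher. Most of this level lay in PL12. Tspan8 differed 95.8-fold without PLA4 replicate 2 and 274-fold without PLA4 replicate 1. Nipal1, a member of a family of magnesium transporters, stood at 10.8 and 10.9 CPM in PLA and 48.8 and 44.5 CPM in PL12, against 0.565 and 0.651 CPM in PLA4 and 0.334 and 0.749 CPM in PL1, 50.02-fold higher by side means, and the lowest PLA library was still over 10 times the highest library of PLA4 and PL1. Cdh13, a cadherin without a cytoplasmic tail, stood at 4.50 and 4.36 CPM in PLA and 26.9 and 25.4 CPM in PL12, against 0.00774 and 0 CPM in PLA4 and 0.299 and 0.203 CPM in PL1. It was 120.0-fold higher by side means, and PLA4 was at or under the floor of 3 counts. Plac8, a small cysteine-rich protein, stood at 291 and 294 CPM in PLA and 787 and 836 CPM in PL12, against 6.97 and 1.67 CPM in PLA4 and 1.92 and 14.7 CPM in PL1. This gene was 87.4-fold higher, with PL1 replicate 2 well above PL1 replicate 1. Plac8 differed 58.1-fold without PL1 replicate 1 and 177-fold without PL1 replicate 2.

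Subunits of the NADPH oxidases, enzymes that make superoxide or hydrogen peroxide, appeared on both sides of the split. Cyba (ENSMUSG00000006519.11, GRCm38 chromosome 8, 122424776 to 122432930) encodes p22phox, the membrane subunit shared by several of these oxidases. It stood at 32.7 and 31.7 CPM in PLA and 176 and 219.7 CPM in PL12, against 0.217 and 0.0277 CPM in PLA4 and 0.0345 and 1.28 CPM in PL1. The side means were 115 ± 117 CPM against 0.389 ± 0.378 CPM (SD over n = 2 lines a side), 295-fold higher. PL12 was the higher line, and PL1 replicate 2 carried most of the level of the other side. Cyba differed 164-fold without PL1 replicate 1 and 1466-fold without PL1 replicate 2. Duoxa2 encodes the maturation factor of the dual oxidase DUOX2 and stood at 72.2 and 79.4 CPM in PLA and 51.7 and 46.9 CPM in PL12, against 1.11 and 0.298 CPM in PLA4 and 0.460 and 5.05 CPM in PL1. It was 36.2-fold higher, again with PL1 replicate 2 as the highest of the lower libraries. Duoxa2 differed 21.7-fold without PL1 replicate 1 and 108-fold without PL1 replicate 2. Nox4 (ENSMUSG00000030562.17, GRCm38 chromosome 7, 87246096 to 87398710), a catalytic subunit that works with p22phox, was on the opposite side. It stood at 0 and 0.0169 CPM in PLA and 0.0409 and 0.0184 CPM in PL12, against 12.9 and 21.5 CPM in PLA4 and 7.78 and 3.38 CPM in PL1. The 4 libraries of PLA and PL12 held 6 counts of Nox4 in all, and the side means differed 598-fold. Leaving out 1 library at a time gave 462 to 849.6-fold.

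Enzymes of sphingolipids were also found on both sides. Sgpp2, a phosphatase of sphingosine 1-phosphate, stood at 4.52 and 4.33 CPM in PLA and 19.5 and 15.7 CPM in PL12, against 0.186 and 0.0831 CPM in PLA4 and 0.138 and 0.185 CPM in PL1. It was 74.4-fold higher by side means, and the side means were 11.02 ± 9.33 and 0.148 ± 0.0192 CPM (SD, n = 2 lines a side). Sptlc3 (ENSMUSG00000039092.9, GRCm38 chromosome 2, 139493913 to 139637674), a subunit of serine palmitoyltransferase, which starts sphingolipid synthesis, was lower in PLA and PL12. It stood at 0.715 and 0.592 CPM in PLA and 0.266 and 0.285 CPM in PL12, against 56.9 and 83.0 CPM in PLA4 and 17.6 and 9.49 CPM in PL1. The side means were 0.465 ± 0.267 CPM against 41.8 ± 39.9 CPM (SD over n = 2 lines a side), 89.9-fold lower. PLA4 had the highest level and PL12 the lowest.

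Regulators of the actin skeleton and of cell survival completed the genes that were higher. Rhof, a small GTPase known from filopodia, stood at 15.1 and 15.1 CPM in PLA and 16.8 and 14.1 CPM in PL12, against 0.704 and 0.492 CPM in PLA4 and 0.299 and 0.450 CPM in PL1, 31.4-fold higher with nearly level lines on each side. Arhgap8, a GTPase-activating protein, stood at 5.85 and 5.66 CPM in PLA and 24.8 and 27.8 CPM in PL12, against 0.124 and 0.0415 CPM in PLA4 and 0.115 and 0.0441 CPM in PL1 and was 198-fold higher. Misp, an actin-bundling protein that positions the mitotic spindle, was the reverse of Msln and Cyba in that PLA carried most of it. It stood at 31.7 and 32.6 CPM in PLA and 2.17 and 1.94 CPM in PL12, against 0.124 and 0.00692 CPM in PLA4 and 0 and 0 CPM in PL1. Neither PL1 library held a count of Misp, and the fold of 523 rests on 17 counts in PLA4. Misp differed 276-fold without PLA4 replicate 2 and 4937-fold without PLA4 replicate 1. Bcl2l15, of the Bcl-2 family of apoptosis regulators, stood at 6.41 and 5.78 CPM in PLA and 55.6 and 57.1 CPM in PL12, against 0.0464 and 0 CPM in PLA4 and 0.173 and 0.132 CPM in PL1 and was 356-fold higher. Kbtbd11, a kelch-repeat protein, stood at 26.7 and 27.2 CPM in PLA and 23.6 and 22.3 CPM in PL12, against 0.395 and 0.0138 CPM in PLA4 and 0.299 and 0.441 CPM in PL1, 86.9-fold higher, or 65.2 to 129.97-fold on leaving out 1 library. The lowest value of Kbtbd11, 0.0138 CPM, was that of PLA4 replicate 2.

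Postn (ENSMUSG00000027750.16, GRCm38 chromosome 3, 54361109 to 54391037) was among the genes lower in PLA and PL12 and encodes periostin, a matricellular protein of fibroblasts and tumour stroma. It stood at 0.138 and 0.118 CPM in PLA and 0.0614 and 0.0827 CPM in PL12, against 18.2 and 9.65 CPM in PLA4 and 5.24 and 12.3 CPM in PL1. The side means were 0.100 ± 0.0398 CPM against 11.3 ± 3.63 CPM (SD over n = 2 lines a side), 113-fold lower. All libraries of PLA4 and PL1 exceeded 5 CPM, and none of PLA and PL12 reached 0.15. Smoc2, a calcium-binding matricellular protein, stood at 0.203 and 0.313 CPM in PLA and 0.880 and 0.653 CPM in PL12, against 64.1 and 55.4 CPM in PLA4 and 53.9 and 3.99 CPM in PL1 and was 86.5-fold lower. PL1 replicate 2 lay more than 10-fold under PL1 replicate 1, but above all libraries of PLA and PL12. Ptn encodes the growth factor pleiotrophin and stood at 1.96 and 1.88 CPM in PLA and 1.66 and 2.12 CPM in PL12, against 35.2 and 143 CPM in PLA4 and 41.4 and 18.05 CPM in PL1. PLA and PL12 were level, and the PLA4 libraries lay apart. Ptn differed 17.1-fold without PLA4 replicate 2 and 45.2-fold without PLA4 replicate 1.

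Cd59a (ENSMUSG00000032679.12, GRCm38 chromosome 2, 104095801 to 104115354) encodes an inhibitor of the membrane attack complex of complement and was lower too. It stood at 0.227 and 0.237 CPM in PLA and 0.266 and 0.441 CPM in PL12, against 46.7 and 25.2 CPM in PLA4 and 20.5 and 17.4 CPM in PL1. The side means were 0.293 ± 0.0858 CPM against 27.5 ± 12.04 CPM (SD over n = 2 lines a side), 93.8-fold lower. The lines of each side were within about 2-fold of each other. Il1rl1, the receptor of interleukin-33, stood at 0.967 and 0.559 CPM in PLA and 0.778 and 0.505 CPM in PL12, against 6.44 and 23.1 CPM in PLA4 and 10.3 and 7.95 CPM in PL1 and was 17.03-fold lower. Il1rl1 differed 11.1-fold without PLA4 replicate 2 and 22.97-fold without PLA4 replicate 1. Mill1, an MHC class I-like protein, stood at 0.252 and 0.313 CPM in PLA and 0.307 and 0.221 CPM in PL12, against 18.3 and 69.9 CPM in PLA4 and 9.22 and 2.17 CPM in PL1. Mill1 differed 43.8-fold without PLA4 replicate 2 and 138-fold without PLA4 replicate 1. Its close relatives can share reads with it, so the split of reads between them is uncertain.

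Developmental regulators and a stress keratin were on the same side. Gas1, a co-receptor for Hedgehog ligands, stood at 0.487 and 0.398 CPM in PLA and 0.246 and 0.202 CPM in PL12, against 14.9 and 47.7 CPM in PLA4 and 8.88 and 3.68 CPM in PL1 and was 56.3-fold lower. Gas1 differed 31.7-fold without PLA4 replicate 2 and 80.9-fold without PLA4 replicate 1. Id4, an inhibitor of basic helix-loop-helix factors, stood at 1.84 and 1.498 CPM in PLA and 4.20 and 4.03 CPM in PL12, against 89.5 and 46.1 CPM in PLA4 and 67.8 and 37.4 CPM in PL1, 20.8-fold lower, with PL12 above PLA in every library. Krt16, a keratin of wounded and hyperproliferative epidermis, stood at 10.8 and 9.85 CPM in PLA and 11.6 and 12.8 CPM in PL12, against 369.6 and 1118 CPM in PLA4 and 252 and 59.5 CPM in PL1. The highest library exceeded the lowest of PLA4 and PL1 by over 10-fold. Krt16 differed 23.2-fold without PLA4 replicate 2 and 56.4-fold without PLA4 replicate 1. Krt16 shares near-identical stretches with other type I keratins. Nckap5, a microtubule-binding protein, stood at 0.431 and 0.466 CPM in PLA and 0.368 and 0.441 CPM in PL12, against 10.95 and 26.9 CPM in PLA4 and 19.6 and 1.78 CPM in PL1 and was 34.7-fold lower, with PL1 replicate 2 the lowest of its side. Pcdhgb1, a clustered protocadherin of cell recognition, stood at 0.504 and 0.508 CPM in PLA and 0.286 and 0.294 CPM in PL12, against 40.5 and 20.9 CPM in PLA4 and 22.6 and 16.2 CPM in PL1 and was 62.9-fold lower. Cldn34c1, of the claudin family, was at 0 in PL12 and at 0.341 and 0.296 CPM in PLA, against 11.8 and 11.8 CPM in PLA4 and 8.73 and 7.29 CPM in PL1. Protocadherins and these claudins have close copies, which makes the share of reads given to each uncertain.

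Of these 28 genes, Msln, Arhgap8, Bcl2l15, Sgpp2, Rhof, Nipal1, Cdh13, Postn, Cd59a, Pcdhgb1, Cldn34c1, Sptlc3 and Id4 stayed called in each of 16 alternative analyses. Nox4 lost the call without PL12 replicate 2 and Misp without either PL12 library. The remaining 13 lost it without any 1 of the PLA or PL12 libraries, and Kbtbd11, Tspan8, Nckap5 and Mill1 also without PL1 replicate 1. The replicate block, which took the replicate number into the model, ended the call of Tspan8, Duoxa2 and Nckap5. No alternative reversed a direction.

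**Figure D1:**
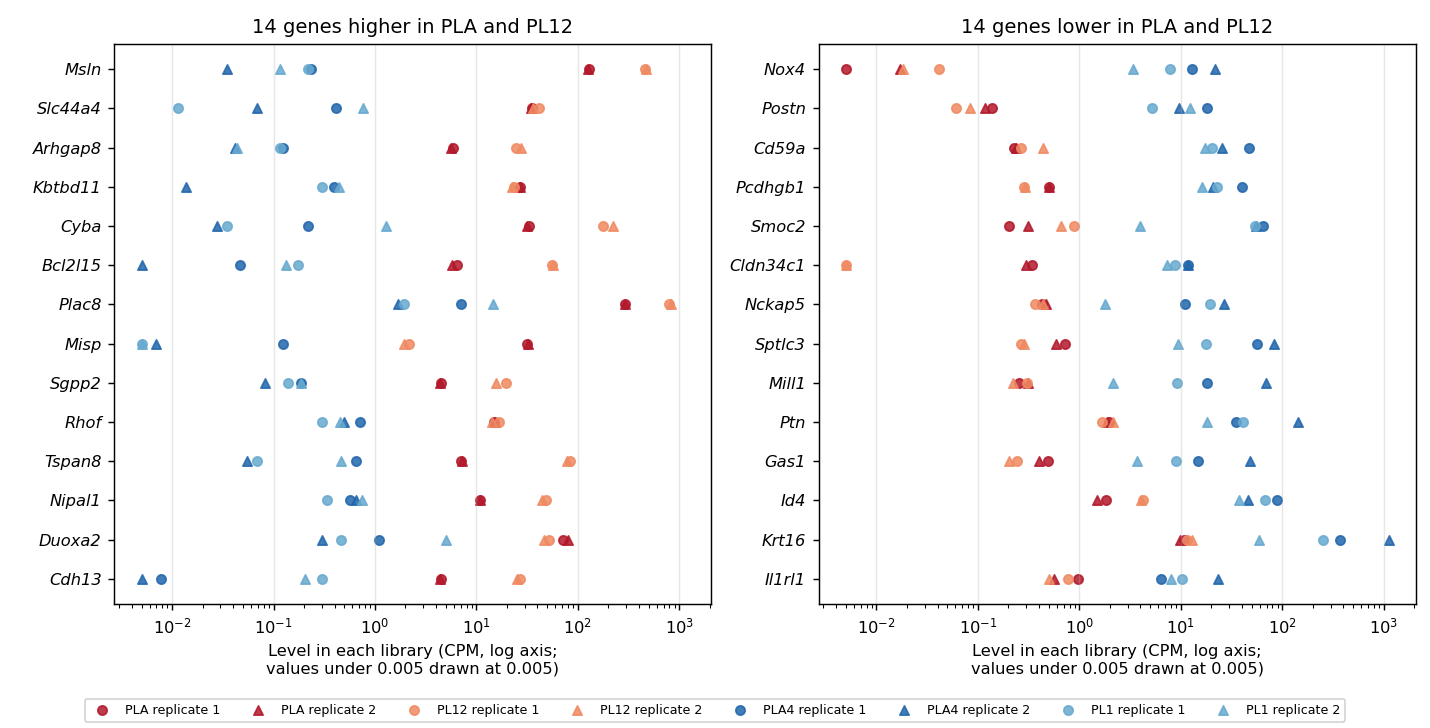
Level in each library (CPM, log axis) of the 14 genes higher and the 14 lower in PLA and PL12 whose smallest fold change over the 4 line pairs was largest at a mean of at least 5 CPM, with a circle for replicate 1 and a triangle for replicate 2. In each gene the 4 libraries of PLA and PL12 lie apart from the 4 of PLA4 and PL1, which the choice of genes requires, and the PLA4 and PL1 libraries scatter more than those of PLA and PL12, as in Cyba, where PL1 stood at 0.0345 and 1.28 CPM.

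Promoter letters were compared between the called genes and all genes tested, in windows from 250 bases before to 50 after the gene start (RefSeq, GRCm38.p6). A window was found for 319 of the 432 higher genes, 214 of the 302 lower genes and 12274 of the genes tested. The 12 motifs were searched on both strands, and their matches can overlap. A match of the antioxidant response element can hold an AP-1 site, and a match of the STAT site can hold an ETS site. The one with the largest gap between the directions was the E-box CACCTG, which Zeb and Snail factors bind. It was in 25.1% of the higher (80 genes), 14% of the lower (30 genes) and 18.3% of all windows (2245 genes). The AP-1 site TGANTCA was in 6.90%, 6.54% and 5.99%, the TEAD site GGAATG in 13.5%, 14.5% and 12.5%, and the box CCAAT in 32.3%, 40.2% and 38.9%, in the same order. The ETS site CCGGAA was in 24.1%, 19.6% and 25.8%, the GC box GGGCGG in 63.9%, 59.3% and 60.2%, and the antioxidant response element TGACNNNGC in 17.2%, 15% and 14.5%. The remaining sites were in under 10% of each set (the box TATAAA, the STAT site TTCNNNGAA, the FOX site TGTTTAC, the GATA site AGATAA and the CRE site TGACGTCA). The GC content had a median of 61.7% in the higher and 60% in the other sets. A match is a description of the letters, not of binding. The promoters of 3 of the higher genes with 2 E-boxes each are shown beside those of 2 of the lower genes with none. They were picked for these letters and do not represent their sets, since most windows of either direction hold no E-box. Each is given as the 250 bases before the start, 5′ to 3′ on the gene's strand, with the E-box, read on either strand, in capitals. They lie at chr2:122298650-122298899 (+) for Duoxa2, chr5:72647546-72647795 (+) for Nipal1, chr1:78310096-78310345 (+) for Sgpp2, chr7:87246399-87246648 (+) for Nox4 and chr2:139493663-139493912 (+) for Sptlc3. The Nox4 stretch precedes the RefSeq start but lies inside the GENCODE gene, which begins at 87246096. It does not describe the letters before that position.
Duoxa2: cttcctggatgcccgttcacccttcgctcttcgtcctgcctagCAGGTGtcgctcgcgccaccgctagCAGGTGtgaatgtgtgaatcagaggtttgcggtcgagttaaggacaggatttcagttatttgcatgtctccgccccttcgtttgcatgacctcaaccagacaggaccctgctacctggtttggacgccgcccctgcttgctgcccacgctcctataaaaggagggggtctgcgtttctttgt
Nipal1: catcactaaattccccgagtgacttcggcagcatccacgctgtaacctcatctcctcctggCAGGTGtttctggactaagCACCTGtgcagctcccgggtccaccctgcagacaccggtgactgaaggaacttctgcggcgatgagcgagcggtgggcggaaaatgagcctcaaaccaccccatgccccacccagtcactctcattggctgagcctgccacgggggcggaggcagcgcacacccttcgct
Sgpp2: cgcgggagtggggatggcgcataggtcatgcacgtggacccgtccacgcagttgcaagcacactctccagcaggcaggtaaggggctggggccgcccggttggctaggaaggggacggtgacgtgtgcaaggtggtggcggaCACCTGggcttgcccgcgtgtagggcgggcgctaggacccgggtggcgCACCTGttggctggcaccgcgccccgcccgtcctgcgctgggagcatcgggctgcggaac
Nox4: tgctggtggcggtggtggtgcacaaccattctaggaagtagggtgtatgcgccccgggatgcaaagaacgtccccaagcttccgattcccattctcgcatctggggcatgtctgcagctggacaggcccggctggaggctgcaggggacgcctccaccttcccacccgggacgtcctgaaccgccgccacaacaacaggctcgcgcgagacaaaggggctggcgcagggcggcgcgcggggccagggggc
Sptlc3: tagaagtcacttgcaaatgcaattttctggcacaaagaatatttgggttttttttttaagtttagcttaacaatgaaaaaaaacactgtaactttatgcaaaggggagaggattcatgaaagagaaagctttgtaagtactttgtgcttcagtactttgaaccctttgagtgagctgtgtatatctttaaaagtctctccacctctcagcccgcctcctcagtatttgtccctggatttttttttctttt
The E-boxes start 207 and 182 bases before the start in Duoxa2, 189 and 170 in Nipal1, and 108 and 60 in Sgpp2. Among the factors that bind such letters, Zeb1 stood at 0.504 and 0.440 CPM in PLA and 0.900 and 0.928 CPM in PL12, against 8.29 and 0.762 CPM in PLA4 and 0.644 and 2.20 CPM in PL1 and was not called. The highest Zeb1 level was that of PLA4 replicate 1, far above PLA4 replicate 2. Snai2, a Snail factor whose levels are given below, was above Zeb1 in every library and lowest in PL12. A part of Zeb1 or Snai2 in the levels of these genes was not tested.

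Gene lists of epithelial programmes, tumour signalling and other cell types were read next. Each list is given by the members with the same sign in all 4 pairs, to be read against 18.5% higher and 19.7% lower over all genes tested. Counts of called members are to be read against 2.32% called higher and 1.62% called lower over all genes tested. The median of a list is that of its genes' mean log2 fold change over the 4 pairs, which was -0.05 over all genes tested. Of 45 lists, 16 held no called gene. Since the lists were chosen with results of these data known, they carry no test.

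Luminal and secretory genes were mostly higher in PLA and PL12. Of 31 tested, 18 were higher in all 4 pairs (58.1%) and 1 was lower, with a median of 2.07; 2 were called, Msln and Lgals4. Krt19, a keratin of simple epithelium, stood at 803 and 811 CPM in PLA and 1138 and 1385 CPM in PL12, against 78.2 and 0.928 CPM in PLA4 and 0.357 and 0.917 CPM in PL1. Its sides did not overlap, yet PLA4 replicate 1 was 78.2 CPM while the other libraries of its side were under 1 CPM. Krt18 stood at 787 and 737 CPM in PLA and 2266 and 2572 CPM in PL12, against 406 and 17.4 CPM in PLA4 and 38.9 and 44.9 CPM in PL1. Its partner Krt8 stood at 1334 and 1275 CPM in PLA and 2938 and 3172 CPM in PL12, against 1686 and 56.2 CPM in PLA4 and 296 and 225 CPM in PL1, and here PLA4 replicate 1 overlapped with PLA. Muc1 and Muc4, membrane mucins of the apical surface, were not called either. Muc1 stood at 124 and 134 CPM in PLA and 446 and 391 CPM in PL12, against 12.4 and 6.79 CPM in PLA4 and 0.449 and 27.7 CPM in PL1. Muc4 stood at 617 and 643 CPM in PLA and 353 and 252 CPM in PL12, against 24.1 and 6.45 CPM in PLA4 and 0.115 and 40.6 CPM in PL1. In both, PL1 replicate 2 was the highest of its side and PL1 replicate 1 the lowest. Lgals4, a galectin of glandular epithelium, stood at 7.02 and 7.32 CPM in PLA and 5.34 and 5.62 CPM in PL12, against 1.90 and 3.13 CPM in PLA4 and 1.35 and 1.27 CPM in PL1, 3.31-fold higher. Muc5ac, a secreted mucin, was the gene in the opposite direction, at 0.0894 to 0.286 CPM in PLA and PL12 and 0.300 to 2.90 CPM in PLA4 and PL1. The summed level of the list was 11103 and 10980.3 CPM in PLA, 11882 and 12969 in PL12, 6240.3 and 1247 in PLA4 and 1866 and 3170.2 in PL1. It was higher in all 4 pairs for 14 genes without PL1 replicate 1 and PLA4 replicate 2, and for 21 genes without PL1 replicate 2 and PLA4 replicate 1.

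Genes of squamous and basal cells leaned the other way. Of 31 tested, 2 were higher (6.45%) and 14 lower (45.2%), with a median of -1.41. Krt14, the basal keratin, stood at 3429 and 3288 CPM in PLA and 759 and 773 CPM in PL12, against 7055 and 7599 CPM in PLA4 and 7813 and 3148 CPM in PL1; PL1 replicate 2 was under both PLA libraries, and the gene was not called. Serpinb5, the serpin maspin, stood at 238 and 228 CPM in PLA and 148 and 130.1 CPM in PL12, against 636 and 615 CPM in PLA4 and 878 and 442 CPM in PL1 and was called, 3.46-fold lower. Tfap2a, the transcription factor AP-2 alpha, was called as well, at 29.9 and 32.8 CPM in PLA and 29.5 and 30.5 CPM in PL12, against 53.8 and 61.7 CPM in PLA4 and 74.9 and 57.9 CPM in PL1. The order of the lines in most of the other lower genes had PL12 lowest, as in Col17a1 of the hemidesmosome, with 1420.3 and 1408 CPM in PLA, 199.6 and 191 in PL12, 1989.8 and 3968 in PLA4 and 2154 and 827 in PL1. Without PL1 replicate 1 and PLA4 replicate 2, 9 genes were lower in all 4 pairs, and without PL1 replicate 2 and PLA4 replicate 1, 13.

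Genes of terminal squamous differentiation did not go with the basal genes. Of 28 tested, 10 were higher (35.7%) and 3 lower (10.7%), with a median of 0.58, and 4 were called, all higher. Krt80, a keratin of differentiating epithelium, stood at 35.2 and 34.6 CPM in PLA and 99.9 and 104 CPM in PL12, against 4.23 and 3.88 CPM in PLA4 and 3.60 and 5.08 CPM in PL1, 16.3-fold higher. Tgm1, the transglutaminase of the cornified envelope, stood at 19.99 and 21.2 CPM in PLA and 16.6 and 16.4 CPM in PL12, against 2.57 and 3.29 CPM in PLA4 and 0.518 and 0.423 CPM in PL1, 10.9-fold higher. Krt80 was highest in PL12 and Tgm1 lowest in PL1. Krt4, a keratin of oesophageal-type epithelium, was measured at 6.004 and 5.95 CPM in PLA and 1.11 and 1.42 CPM in PL12, and the 4 libraries of PLA4 and PL1 held 2 counts in all. Elf3, an epithelial transcription factor, stood at 171 and 181 CPM in PLA and 267 and 264 CPM in PL12, against 91.0 and 41.5 CPM in PLA4 and 65.4 and 82.2 CPM in PL1. On leaving out either pair of PLA4 and PL1 libraries, 11 genes were higher and 3 or 4 lower in all 4 pairs.

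Junction and polarity genes were higher in PLA and PL12 in 18 of 41 (43.9%) and lower in 3 (7.32%), with a median of 0.46. Pard6b, a scaffold of the apical polarity complex, stood at 42.5 and 44.3 CPM in PLA and 133 and 132 CPM in PL12, against 7.18 and 4.62 CPM in PLA4 and 6.87 and 14.1 CPM in PL1, 10.7-fold higher. Cldn12, a claudin, stood at 71.9 and 74.3 CPM in PLA and 128 and 112 CPM in PL12, against 26.2 and 20.6 CPM in PLA4 and 23.01 and 30.3 CPM in PL1. Cgn, which encodes cingulin of the tight junction, stood at 96.5 and 96.0 CPM in PLA and 171 and 177 CPM in PL12, against 55.1 and 64.9 CPM in PLA4 and 52.9 and 64.1 CPM in PL1. All 3 were called, and PL12 was the highest line in each. Dsp, which encodes the desmosomal protein desmoplakin, was the called gene in the opposite direction at 634 and 651 CPM in PLA and 661 and 594 CPM in PL12, against 3421 and 3269 CPM in PLA4 and 3061 and 1120.3 CPM in PL1, and Jup, its partner plakoglobin, stood at 495 and 513 CPM in PLA and 348 and 363 CPM in PL12, against 1422 and 1261 CPM in PLA4 and 1107 and 573 CPM in PL1 without a call. Dsp and Jup thus lay opposite to Pard6b, Cldn12 and Cgn. Ion channels and solute carriers, not limited to the apical surface, were similar: of 42 tested, 21 were higher (50%) and 3 lower (7.14%). The higher genes included the called Slc15a2, a peptide transporter, Kcnk6, a potassium channel, and Ano9, an anoctamin. Kcnk6 stood at 2.41 and 2.66 CPM in PLA and 13.3 and 12.03 CPM in PL12, against 0.333 and 0.388 CPM in PLA4 and 0.219 and 0.705 CPM in PL1. Kcnj15, a potassium channel, was called lower at 49.7 and 48.1 CPM in PLA and 11.1 and 9.58 CPM in PL12, against 258 and 231 CPM in PLA4 and 139 and 164 CPM in PL1. Without PL1 replicate 1 and PLA4 replicate 2, 13 junction and 15 channel and carrier genes were higher in all 4 pairs.

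Interferon and antigen presentation genes had many members with the same sign and no called gene. Of 54 interferon response genes, 25 were higher (46.3%) and 1 lower (1.85%), with a median of 1.32. Every library was separated in 11. Oas1a, an antiviral sensor of double-stranded RNA, stood at 42.0 and 41.5 CPM in PLA and 24.1 and 22.05 CPM in PL12, against 3.03 and 0.547 CPM in PLA4 and 1.39 and 9.83 CPM in PL1. Bst2, the antiviral tether, stood at 125 and 113 CPM in PLA and 86.1 and 94.03 CPM in PL12, against 18.2 and 4.59 CPM in PLA4 and 8.63 and 25.7 CPM in PL1. The level of PLA was above that of PL12 in both, and PL1 replicate 2 was the highest library of the other side. The summed level of the list was 8782 and 8372 CPM in PLA, 1735 and 1624 in PL12, 4796 and 2079 in PLA4 and 3059 and 4290.5 in PL1, so that PL12 lay below every library of PLA4 and PL1 in the sum while many of its single genes lay above them. In PLA against PL12, 25 of the 54 were higher at an adjusted p under 0.05 and 0 lower, against 20.4% and 17.3% over all genes tested. The count depends on the loose libraries: 14 genes were higher and 10 were called without PL1 replicate 1 and PLA4 replicate 2, and 39 were higher and 36 called without PL1 replicate 2 and PLA4 replicate 1. Over all genes the called genes then numbered 2173 and 3149, against 734. Of 31 antigen presentation genes, 14 were higher (45.2%) and 1 lower. H2-K1, a classical MHC class I heavy chain, stood at 852 and 809 CPM in PLA and 227 and 214 CPM in PL12, against 48.8 and 13.5 CPM in PLA4 and 23 and 116 CPM in PL1. Psmb8, an immunoproteasome subunit, stood at 139 and 127 CPM in PLA and 25.4 and 27.3 CPM in PL12, against 7.73 and 0.305 CPM in PLA4 and 1.66 and 7.37 CPM in PL1. MHC class I genes share near-identical sequence, which makes their single counts uncertain.

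Sting1 encodes the adaptor of cytosolic DNA sensing and was called. It stood at 19.6 and 18.5 CPM in PLA and 2.99 and 1.91 CPM in PL12, against 0.0619 and 0.0415 CPM in PLA4 and 0.104 and 0.185 CPM in PL1, 109.6-fold higher by side means. Both PLA4 libraries and both PL1 libraries were under 0.2 CPM.

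Among 44 chemokine and cytokine genes, 14 were higher (31.8%), 6 were lower (13.6%) and none was called. Neutrophil-directed factors were among those higher. Cxcl2 stood at 234 and 235 CPM in PLA and 214 and 225 CPM in PL12, against 2.03 and 1.83 CPM in PLA4 and 12.6 and 94.8 CPM in PL1. Csf3, the granulocyte growth factor, stood at 66.0 and 66.5 CPM in PLA and 160.0 and 189.7 CPM in PL12, against 2.70 and 0.395 CPM in PLA4 and 1.85 and 37.1 CPM in PL1. PL1 replicate 2 was far above PL1 replicate 1 in both. Ccl7 and Cxcl12 were lower. Cxcl12, the ligand that ACKR3 scavenges, stood at 0.00812 and 0.00846 CPM in PLA and 0.184 and 0.119 CPM in PL12, against 1.78 and 0.685 CPM in PLA4 and 0.253 and 23.6 CPM in PL1, and its level above 2 CPM lay in PL1 replicate 2 alone. Without PL1 replicate 2 and PLA4 replicate 1, 28 of the 44 were higher in all 4 pairs, against 8 without PL1 replicate 1 and PLA4 replicate 2. Of 15 receptors and ligands of chemokines and adrenomedullin, 0 were higher, 5 were lower (33.3%), or 3 without PL1 replicate 1 and PLA4 replicate 2, and none was called; Adm, the adrenomedullin gene, stood at 26 and 24.9 CPM in PLA and 4.38 and 4.13 CPM in PL12, against 30.2 and 58.9 CPM in PLA4 and 13.3 and 80.8 CPM in PL1, with PL1 replicate 1 under PLA. Beside no called gene stand 11 interferon, 7 antigen presentation and 6 chemokine and cytokine genes with every library of PLA and PL12 above the others, against 10% over all genes tested.

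Complement and coagulation genes went both ways, with 8 of 26 higher (30.8%) and 7 lower (26.9%) and 6 called. F3 encodes tissue factor, which starts coagulation, and stood at 809.9 and 782 CPM in PLA and 297 and 252 CPM in PL12, against 38.2 and 61.2 CPM in PLA4 and 34.8 and 52.1 CPM in PL1, 11.5-fold higher. C3, the central complement component, stood at 293 and 306 CPM in PLA and 358 and 316 CPM in PL12, against 43.8 and 42.3 CPM in PLA4 and 99.8 and 171 CPM in PL1 and was called, as were Cfb and Plau, the urokinase gene. Cd59a and C1ra, a protease of the classical complement pathway, were called lower. C1ra stood at 13.98 and 13.1 CPM in PLA and 6.999 and 6.89 CPM in PL12, against 30.6 and 50 CPM in PLA4 and 31.0 and 42.8 CPM in PL1. So components of the alternative pathway (C3, Cfb) were on the side with less of the inhibitor gene Cd59a.

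Growth factor genes were near the background in number, with 13 of 58 higher (22.4%) and 12 lower (20.7%), and 4 were called. Hbegf, a ligand of the EGF receptor, stood at 90.7 and 91.5 CPM in PLA and 133 and 135 CPM in PL12, against 5.74 and 3.64 CPM in PLA4 and 7.31 and 8.19 CPM in PL1, 18.1-fold higher. Egfr, the receptor, stood at 249 and 259 CPM in PLA and 480.4 and 433 CPM in PL12, against 113 and 104 CPM in PLA4 and 148 and 120.0 CPM in PL1, 2.92-fold higher. Ligand and receptor were thus higher on the same side, with all libraries apart. Ereg and Btc, further ligands of this family, had the same sign without a call; Ereg stood at 50.4 and 52.0 CPM in PLA and 166 and 149 CPM in PL12, against 0.813 and 0.0831 CPM in PLA4 and 26.2 and 33.0 CPM in PL1. Pdgfa was called higher and its receptor Pdgfra lower. Pdgfa stood at 155 and 154 CPM in PLA and 98.7 and 96.9 CPM in PL12, against 41.2 and 71.3 CPM in PLA4 and 50.7 and 44.0 CPM in PL1. Pdgfra stood at 0.349 and 0.237 CPM in PLA and 0.471 and 0.267 CPM in PL12, against 4.67 and 7.68 CPM in PLA4 and 2.47 and 4.70 CPM in PL1, 14.7-fold lower. Genes induced by ERK, the kinase downstream of such receptors, and of AP-1 were higher in 11 of 36 (30.6%) and lower in 1, with Hbegf as the called gene. Fos stood at 176 and 166 CPM in PLA and 176 and 158 CPM in PL12, against 11.9 and 18.7 CPM in PLA4 and 37.1 and 113 CPM in PL1, with PL1 replicate 2 nearest to the other side. In this list 7 genes were higher without PL1 replicate 1 and PLA4 replicate 2, and 15 without PL1 replicate 2 and PLA4 replicate 1. Of 22 targets of YAP and TEAD, 7 were higher (31.8%) and 3 lower (13.6%). Ankrd1, a target often used as a readout of YAP, stood at 232 and 225 CPM in PLA and 648 and 679 CPM in PL12, against 11.8 and 1.22 CPM in PLA4 and 7.84 and 24.9 CPM in PL1, 39.0-fold higher. Ankrd1 differed 28.4-fold without PL1 replicate 1 and 62.2-fold without PL1 replicate 2.

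Fibroblast markers were mostly lower in PLA and PL12, and 1 library carried much of their level. Of 16 fibroblast markers tested, 11 were lower (68.8%) and 1 higher (6.25%), with a median of -3.93 and 3 called (Postn, Pdgfra and Col6a2). Col6a2, a chain of collagen VI, stood at 0.203 and 0.152 CPM in PLA and 0.102 and 0.175 CPM in PL12, against 4.55 and 3.86 CPM in PLA4 and 0.426 and 2.36 CPM in PL1. The defining fibrillar collagen gene Col1a1 stood at 0.382 and 0.440 CPM in PLA and 0.675 and 0.570 CPM in PL12, against 4.36 and 0.436 CPM in PLA4 and 0.575 and 254 CPM in PL1, and Dcn, decorin, at 0 and 0.00846 CPM in PLA and 0.0614 and 0.0919 CPM in PL12, against 0.0387 and 0.886 CPM in PLA4 and 0.0230 and 10.7 CPM in PL1. The high levels of both lay in PL1 replicate 2. The summed level of the list was 121 and 102 CPM in PLA, 126 and 145 in PL12, 53.3 and 37.0 in PLA4 and 14.2 and 463 in PL1, and 3 of the 16 markers were under 1 CPM in PL1 replicate 2 against 8 to 15 in the other libraries. Ly6c1, the marker in the opposite direction, took most of the sum in PLA and PL12. Without PL1 replicate 2 and PLA4 replicate 1, 6 markers were lower in all 4 pairs. The part of other cells in these levels was not tested.

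Of 34 genes of the mesenchymal state, 14 were lower (41.2%) and 3 higher (8.82%), with a median of -1.57. Fstl1, a secreted glycoprotein, was called, at 21.3 and 20.1 CPM in PLA and 14.2 and 12.9 CPM in PL12, against 436 and 713 CPM in PLA4 and 53.7 and 38.1 CPM in PL1, 18.1-fold lower. Vim, the intermediate filament gene of mesenchymal cells, was uneven: it stood at 0.0244 and 0.0339 CPM in PLA, 10.1 and 11.03 in PL12, 61.6 and 0.242 in PLA4 and 0.437 and 40.2 in PL1. Its high libraries were PLA4 replicate 1 and PL1 replicate 2, and the other replicate of each line lay under PL12. Snai2, an EMT transcription factor that basal cells also express, stood at 73.8 and 68.9 CPM in PLA and 8.10 and 7.04 CPM in PL12, against 85.9 and 108 CPM in PLA4 and 84.9 and 97.2 CPM in PL1. Without PL1 replicate 1 and PLA4 replicate 2, 8 genes of this list were lower in all 4 pairs. Of 33 collagens, laminins and related genes, 12 were lower (36.4%) and 4 higher (12.1%). Lama5 and Lamb2, laminin chains of epithelial basement membrane, were called higher. Lama5 stood at 321 and 367 CPM in PLA and 519 and 536 CPM in PL12, against 79.1 and 116 CPM in PLA4 and 79.5 and 110.5 CPM in PL1. Col5a3, Col6a2 and Lama4 were called lower, and Col5a3 stood at 0.0325 and 0.0508 CPM in PLA and 0.0614 and 0.0643 CPM in PL12, against 5.46 and 2.71 CPM in PLA4 and 7.20 and 0.652 CPM in PL1. Col5a3 differed 45.3-fold without PL1 replicate 1 and 108-fold without PL1 replicate 2. Lama4, a chain of mesenchymal and vascular laminins, did not exceed 1 CPM in any library. Of 10 smooth muscle markers, 5 were lower (50%) and 2 higher, and Acta2 stood at 78.2 and 69.9 CPM in PLA and 10.6 and 9.22 CPM in PL12, against 582 and 763 CPM in PLA4 and 194 and 70.9 CPM in PL1, where PL1 replicate 2 was between the PLA libraries.

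**Figure D2:**
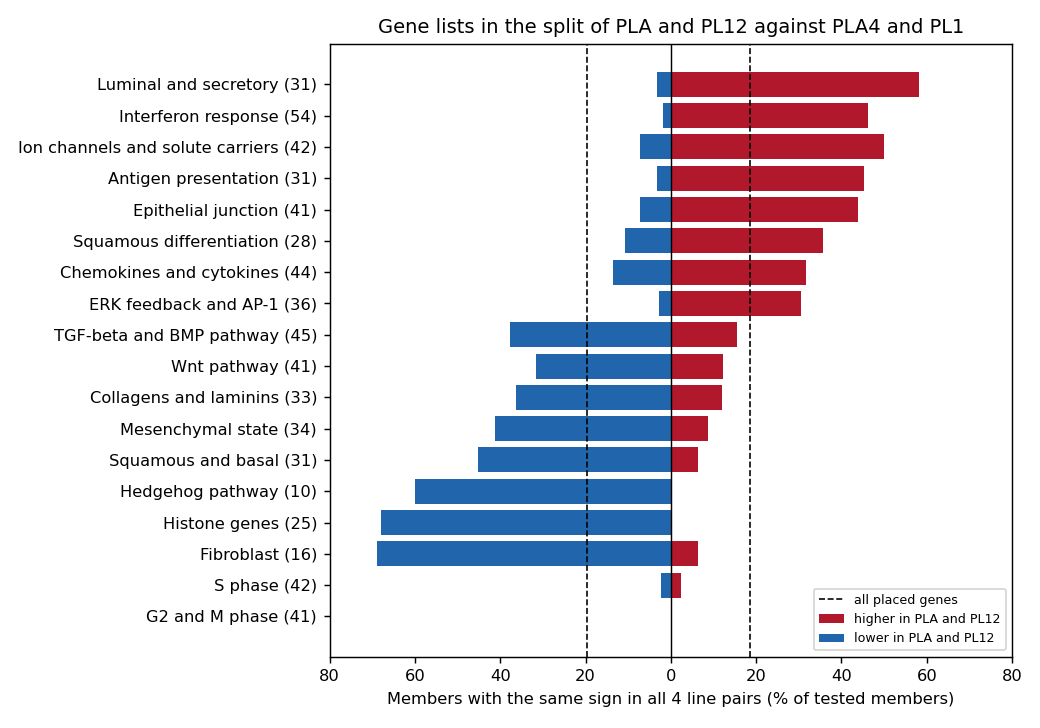
Share of tested members of 18 gene lists with the same sign in all 4 line pairs, higher in PLA and PL12 to the right and lower to the left, with the number tested in brackets and dashed lines at the shares over all genes with a chromosome position (18.5% and 19.7%). Luminal and secretory genes reach 58.1% higher and fibroblast markers 68.8% lower, and no G2 and M phase gene has the same sign in all pairs.

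Developmental pathways differed in how many members were lower in PLA and PL12. Of 10 Hedgehog genes tested, 6 were lower (60%) and 0 higher, and 3 were lower without PL1 replicate 1 and PLA4 replicate 2. Gli3, a transcription factor of the pathway, was called at 11.1 and 11.6 CPM in PLA and 19.7 and 17.9 CPM in PL12, against 70.3 and 44.0 CPM in PLA4 and 54.7 and 29.6 CPM in PL1, beside Gas1. Its sides did not overlap and differed 3.29-fold. Of 45 TGF-beta and BMP genes, 17 were lower (37.8%) and 7 higher (15.6%). Tgfb1, the ligand, was called lower at 86.2 and 87.3 CPM in PLA and 41.7 and 48.6 CPM in PL12, against 153 and 149 CPM in PLA4 and 186 and 120.2 CPM in PL1. Inhbb, an activin subunit, was called lower at 27.2 and 26.2 CPM in PLA and 7.74 and 8.87 CPM in PL12, against 83.6 and 68.7 CPM in PLA4 and 58.2 and 44.9 CPM in PL1, as was Bambi, a decoy receptor. Bmp3, a BMP known to oppose other BMPs, and Ltbp1, which binds latent TGF-beta, were called higher. Bmp3 stood at 8.67 and 9.13 CPM in PLA and 4.30 and 2.92 CPM in PL12, against 0.0232 and 0.00692 CPM in PLA4 and 0.115 and 0.476 CPM in PL1. Bmp3 differed 25.5-fold without PL1 replicate 1 and 96.1-fold without PL1 replicate 2. Tgfbr2, the type II receptor, had the same sign without a call, at 206 and 209.8 CPM in PLA and 232 and 229 CPM in PL12, against 67.1 and 26.4 CPM in PLA4 and 98.1 and 70.6 CPM in PL1. Ligand and receptor of TGF-beta were thus on opposite sides.

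Of 41 Wnt genes, 13 were lower (31.7%) and 5 higher (12.2%). Lgr6 and Rnf43, a receptor of R-spondins and an antagonist that is itself a Wnt target, were called lower. Lgr6 stood at 41.1 and 42.9 CPM in PLA and 41.9 and 35.4 CPM in PL12, against 590.5 and 337 CPM in PLA4 and 480.0 and 89.6 CPM in PL1. Rnf43 stood at 8.45 and 8.29 CPM in PLA and 3.32 and 3.08 CPM in PL12, against 27.1 and 40.7 CPM in PLA4 and 24.1 and 23.5 CPM in PL1. Axin2, a feedback inhibitor used as a readout of the pathway, stood at 0.203 and 0.305 CPM in PLA and 0.593 and 0.818 CPM in PL12, against 1.98 and 2.29 CPM in PLA4 and 1.75 and 1.06 CPM in PL1 and was not called, though its libraries did not overlap. Wnt7a, a ligand, was called higher and was mainly a gene of PL12: the PL12 libraries held 36.6 and 38.1 CPM and the PLA libraries 0.195 and 0.152 CPM, while 2 counts in all came from PLA4 and PL1. In the Notch list 5 of 22 were higher (22.7%) and 4 lower (18.2%). The receptor Notch3 and Rbpj, the DNA-binding partner of Notch receptors, were called higher. Notch3 stood at 13.3 and 13.6 CPM in PLA and 15 and 15.01 CPM in PL12, against 3.84 and 1.88 CPM in PLA4 and 0.150 and 0.529 CPM in PL1. Rbpj stood at 183 and 193 CPM in PLA and 296 and 256 CPM in PL12, against 50.7 and 58.3 CPM in PLA4 and 50.7 and 98.7 CPM in PL1. Of 51 developmental transcription factors, 11 were lower (21.6%) and 3 higher (5.88%), and Id4 was among those called.

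Of 59 NRF2 and detoxification genes, 6 were higher (10.2%) and 8 lower (13.6%), both under the shares over all genes, with 5 called; 11 were higher without PL1 replicate 2 and PLA4 replicate 1. Abcc3 and Abcc4, exporters of conjugated compounds, were higher; Abcc3 stood at 209.6 and 222 CPM in PLA and 124 and 115 CPM in PL12, against 16.1 and 5.97 CPM in PLA4 and 1.90 and 6.74 CPM in PL1. Gpx2, a glutathione peroxidase of epithelia, was lower at 89.7 and 83.3 CPM in PLA and 32.8 and 33.6 CPM in PL12, against 593 and 556 CPM in PLA4 and 211 and 138 CPM in PL1, as were the glutathione transferase genes Gsta2 and Mgst1. Among the 5 called genes, the exporters and the conjugating or peroxide-reducing enzymes were thus on opposite sides, which does not describe the list as a whole. In lipid metabolism 11 of 59 were higher (18.6%) and 15 lower (25.4%), and the 4 called genes (Abcg1, Gpat3, Pnpla2 and Agpat2) were all higher; 9 were lower without PL1 replicate 2 and PLA4 replicate 1. Abcg1, a sterol exporter, stood at 7.88 and 9.40 CPM in PLA and 1.84 and 1.78 CPM in PL12, against 0.333 and 0.561 CPM in PLA4 and 0.345 and 0.370 CPM in PL1, 12.99-fold higher. Pnpla2, the triglyceride lipase ATGL, differed 2.04-fold at 41.9 and 45.6 CPM in PLA and 50.3 and 52.6 CPM in PL12, against 24.9 and 21.6 CPM in PLA4 and 23.3 and 23.3 CPM in PL1. Of 25 genes of cholesterol synthesis, 8 were higher (32%) and 3 lower (12%), and 4 were higher without PL1 replicate 1 and PLA4 replicate 2. Of 43 genes of glycolysis and hypoxia, 4 were higher (9.3%) and 8 lower (18.6%), and 4 were lower without PL1 replicate 1 and PLA4 replicate 2. Anxa3, an annexin, was called higher at 1388 and 1299.6 CPM in PLA and 1455 and 1451 CPM in PL12, against 453 and 314 CPM in PLA4 and 353 and 450.4 CPM in PL1.

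Histone genes were lower in PLA and PL12 in 17 of 25 (68%) and higher in 0, with a median of -1.53. H2bc4, a replication-dependent H2B gene, was called, at 23.9 and 25.1 CPM in PLA and 29.3 and 38.3 CPM in PL12, against 219.6 and 116 CPM in PLA4 and 78.7 and 83.7 CPM in PL1. Most others were low, so that 10 to 18 of the 25 were under 1 CPM in a library, and their transcripts mostly lack poly(A) tails. Genes of the S phase and of G2 and M phase did not go with the split. Of 42 S phase genes 1 was higher and 1 lower, and of 41 G2 and M phase genes none had the same sign in all pairs. PLA was the lowest line: the summed level of the 41 genes was 570.0 and 565 CPM in PLA, 5655 and 5182 in PL12, 2126 and 3561 in PLA4 and 4946 and 3228 in PL1, and all 41 were lower in PLA than in PL12 at an adjusted p under 0.05 (edgeR), against 17.3% of all genes tested.

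Markers of other cell types were few. Of 22 immune markers 8 passed the filter, and Ptprc and Cd3e, the pan-leukocyte and T cell genes, did not. Their summed level was 88.2 and 84.5 CPM in PLA, 28.0 and 25.4 in PL12, 20.03 and 6.98 in PLA4 and 9.88 and 14.1 in PL1. Csf1r, the growth factor receptor of macrophages, was called higher at 3.44 and 4.19 CPM in PLA and 12.3 and 11.1 CPM in PL12, against 0.960 and 0.893 CPM in PLA4 and 1.38 and 0.458 CPM in PL1. Itgam, an integrin of myeloid cells, made up most of the level in PLA, with 51.5 and 48.1 CPM in PLA, 1.00 and 0.680 in PL12, 0.673 and 0.492 in PLA4 and 0.138 and 0.811 in PL1. The 8 endothelial markers tested summed to 3.75 and 4.27 CPM in PLA, 17.7 and 18.4 in PL12, 4.55 and 4.71 in PLA4 and 2.78 and 6.09 in PL1. Of 16 alveolar markers, 3 were higher (18.8%) and 0 lower; Abca3, a lipid transporter of lamellar bodies, was called at 49.8 and 52.4 CPM in PLA and 99.6 and 98.3 CPM in PL12, against 3.32 and 8.74 CPM in PLA4 and 13.2 and 12.8 CPM in PL1. Of 7 neuroendocrine markers 3 were lower (42.9%) and none was called. The part of other cells in the split was not tested.

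Comparisons within each side are not among the 4 line pairs of the rule, but the rule favours members with small differences there. Each sets a line with nearly silent Ackr3 against a line that expresses it. PLA was higher than PL12 in 3804 genes (20.4%) and lower in 3231 (17.3%), and PLA4 was higher than PL1 in 860 (4.61%) and lower in 733 (3.93%), at an adjusted p under 0.05 in edgeR's quasi-likelihood test. Of the 432 called genes that were higher in PLA and PL12, 62 were higher in PLA than in PL12 and 69 lower, or 30.32% in all; of the 302 lower, 59 were higher and 37 lower (31.79%). Over all genes tested the share was 37.73%. Between PLA4 and PL1, 18 of the 432 were higher in PLA4 and 30 lower (11.11%), and 28 of the 302 were higher and 5 lower (10.93%), against 8.542% over all genes. Where lower genes differed between PLA4 and PL1, most were higher in PLA4. The median absolute difference within a side was smaller in the called genes than over all genes: 0.467 and 0.504 (log2) between PLA and PL12 in the higher and lower genes against 0.747, and 0.329 and 0.386 between PLA4 and PL1 against 0.453. The choice of the called genes favours genes with small spread. It also favours small differences within a side, because both lines of a side must lie beyond both lines of the other. In genes with the same sign but no call, the medians were 0.470 between PLA and PL12 and 0.341 between PLA4 and PL1. The shares called there were 19.06% and 4.257%.

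Some called genes differed widely between PLA and PL12. Gcnt3, a glycosyltransferase that branches mucin glycans, differed by -5.58 ± 0.934 (SE, adjusted p = 0.00578) on the log2 scale between PLA and PL12 in edgeR's test. It stood at 2.03 and 2.25 CPM in PLA, 107 and 98.4 in PL12, 0.310 and 0.00692 in PLA4 and 0.138 and 0.238 in PL1. Bst1, a surface enzyme that makes cyclic ADP-ribose, differed by -5.50 ± 0.699 (SE, adjusted p = 0.00238), with 35.5 and 38.4 CPM in PL12 and 1.02 and 0.609 in PLA. Sostdc1, a secreted antagonist of BMP and Wnt, was nearly silent in PLA and measured in PL12, at 0.0975 and 0.0677 CPM in PLA, 10.8 and 10.6 in PL12, 70.3 and 65.1 in PLA4 and 249 and 85.03 in PL1. Its PLA and PL12 libraries lay below the lowest of PLA4 and PL1 all the same, and it differed by -7.00 ± 0.636 (SE, adjusted p = 0.000921) within the side.

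Wide differences were also found between PLA4 and PL1. Cdx2, a transcription factor of intestinal epithelium, stood at 10.1 and 10.2 CPM in PLA, 14.7 and 16.4 in PL12, 0.0155 and 0 in PLA4 and 0.748 and 0.564 in PL1. PLA4 lay under the floor of 3 counts, so no size is given for its difference from PL1 (adjusted p = 0.00728 in edgeR's test). Adh7, a retinol-oxidising alcohol dehydrogenase, was chiefly a gene of PLA4, with 0.309 and 0.245 CPM in PLA, 0.982 and 1.04 in PL12, 104 and 70.9 in PLA4 and 5.90 and 8.75 in PL1. The difference was 3.58 ± 0.284 (SE, adjusted p = 0.00356). Rftn2, a raft protein, stood at 0.114 and 0.127 CPM in PLA, 0.0205 and 0.0551 in PL12, 22.1 and 39.9 in PLA4 and 0.483 and 1.15 in PL1 and differed by 5.23 ± 0.571 (SE, adjusted p = 0.00833). Fstl1 differed by 3.65 ± 0.293 (SE, adjusted p = 0.00374), with PLA4 above 400 CPM and PL1 at 38.1 and 53.7 CPM.

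Of the 734 called genes, 19 (2.59%) differed in the same direction in both comparisons within the sides, 10 being higher in PLA and PLA4 and 9 lower. Over all genes tested 411 (2.20%) were higher in both PLA and PLA4 and 267 (1.43%) lower in both, so the share is near the background. These 19 carry the split and a difference that goes with the pair PLA and PLA4. Lrrc32, which encodes the anchor GARP that holds latent TGF-beta at the surface, stood at 7.01 and 6.90 CPM in PLA, 1.13 and 1.02 in PL12, 71.3 and 77.5 in PLA4 and 12.1 and 13.9 in PL1. It differed by 2.70 ± 0.145 (SE, adjusted p = 0.000310) between PLA and PL12 and by 2.52 ± 0.139 (SE, adjusted p = 0.00132) between PLA4 and PL1 in edgeR's test. Gpx2 was higher in PLA than PL12 by 1.38 ± 0.210 (SE, adjusted p = 0.00419) and in PLA4 than PL1 by 1.72 ± 0.211 (SE, adjusted p = 0.0112). Xdh, xanthine dehydrogenase of purine breakdown, stood at 106 and 105 CPM in PLA, 38.5 and 36.4 in PL12, 349 and 345 in PLA4 and 205 and 146 in PL1, and Steap3, a metalloreductase of iron uptake, at 7.43 and 6.64 CPM in PLA, 1.43 and 1.498 in PL12, 45.0 and 75.5 in PLA4 and 20.1 and 29.7 in PL1. In all 4 the order of the lines was PLA4, PL1, PLA and PL12 from high to low.

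Genes in the other direction within the sides included Padi4, a peptidylarginine deiminase, at 10.2 and 9.57 CPM in PLA, 29.8 and 30.5 in PL12, 0.0774 and 0.00692 in PLA4 and 0.828 and 0.996 in PL1. Stxbp6, which regulates vesicle fusion, stood at 21.99 and 20.5 CPM in PLA, 39.7 and 34.4 in PL12, 2.24 and 2.05 in PLA4 and 9.14 and 7.50 in PL1 and Cdh13 showed the same order, from PL12 over PLA and PL1 to PLA4. Sec23a, a coat protein of vesicles leaving the endoplasmic reticulum, differed less, at 53.2 and 54.7 CPM in PLA, 105 and 85.6 in PL12, 21.1 and 19.97 in PLA4 and 36.6 and 41.4 in PL1. The remaining members of this set that are named in the text are Sptlc3 and Kcnj15, both higher in PLA and PLA4.

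**Figure D3:**
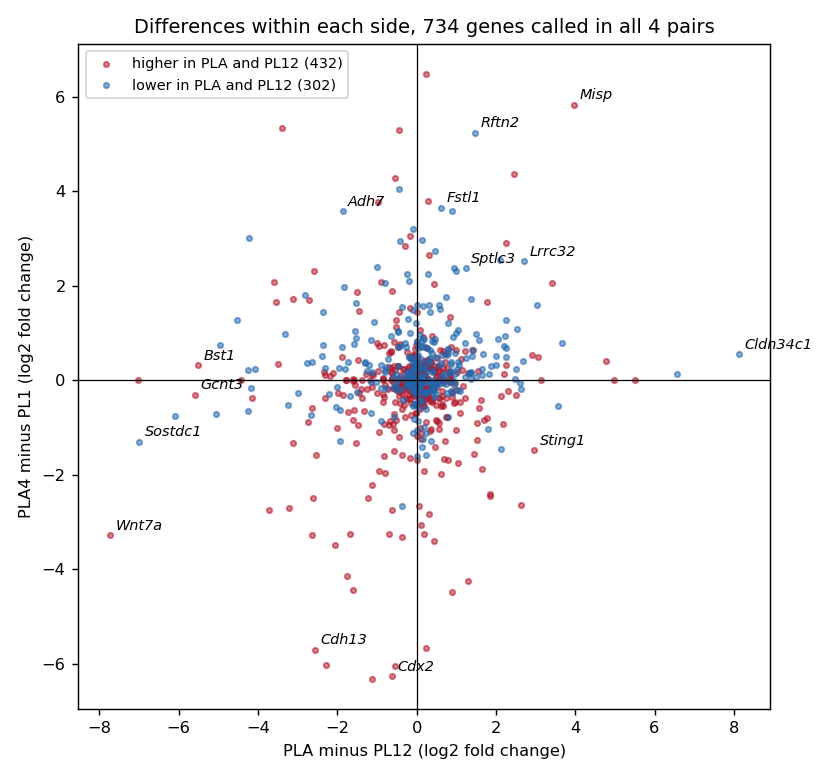
Log2 fold change of PLA over PL12 (horizontal) and of PLA4 over PL1 (vertical) for the 734 called genes, red for the 432 that are higher and blue for the 302 that are lower in PLA and PL12. Most points lie near the centre, and named genes far from it differ between the lines of a side, such as Wnt7a, Sostdc1 and Gcnt3 to the left (higher in PL12 than in PLA) and Rftn2 and Adh7 at the top (higher in PLA4 than in PL1).

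The called genes also differed in how far the replicates of PLA4 and PL1 lay apart. No called gene was over 2-fold apart between the PLA libraries or between the PL12 libraries. Over all genes tested these shares were only 0.0429% and 0.343%. Between the PLA4 libraries 20 of the higher (4.63%) and 36 of the lower genes (11.92%) were, against 7.59% of all genes tested; between the PL1 libraries it was 16 (3.704%) and 38 (12.58%), against 6.30%. PL1 replicate 2 was above PL1 replicate 1 in 64.35% of the higher genes and in 33.44% of the lower, against 49.94% of all genes, so this library lay nearer to PLA and PL12 in both directions. For PLA4 the same shares were 42.36% and 53.31%, against 48.87%, with replicate 1 nearer to PLA and PL12.

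The called genes were spread unevenly over the chromosomes. Chromosome 5 held 109 of the 432 higher genes (25.2%), or 8.88% of its 1228 genes tested, against 2.32% over all genes. Chromosome 17 held 47 (10.9%), or 5.22% of its genes. Of the lower genes, chromosome 1 held 52 (17.2%), or 4.39% of its genes, chromosome 13 held 34 (11.3%), or 4.08%, and chromosome 18 held 21, or 4.17%, against 1.62% over all genes. Without chromosome 5, 1.86% of the genes were called higher, and without chromosomes 5 and 17 it was 1.67%. The levels of whole chromosomes were also read. The median over genes of chromosome 5, as a line's log2 level minus the mean of the 4 lines, was 0.39 in PLA, 0.23 in PL12, -0.18 in PLA4 and -0.28 in PL1. The PLA4 libraries were at -0.34 and -0.06. These medians include all genes of the chromosome with a mean of at least 5 CPM, so the called genes are a minority in them. Chromosomes 5 and 17 were the 2 of 20 with both medians of PLA and PL12 above those of PLA4 and PL1, 5 had both below (1, 3, 6, 7 and 10) and 13 were mixed. Chromosomes 13 and 18, with many lower called genes, were among the mixed ones.

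Chromosome 5 was not uniform along its length. In windows of 20 Mb, the median of PLA was 0.56 to 0.75 in 6 windows and -0.18 and -0.21 in the windows from 100 to 140 Mb, where PL12 was at 0.44 and 0.39. The last window, from 140 Mb on, had the largest share of called genes, 26 of 136. Over all 137 windows, 21 had PLA and PL12 above PLA4 and PL1, 43 had them below and 73 were mixed. The share of the higher called genes on chromosome 5 was 25.2% here; it was 17.5% without PLA4 replicate 1, 19% without PL1 replicate 2, and 13.7% without both libraries. What lies behind the levels of whole chromosomes was not tested.

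**Figure D4:**
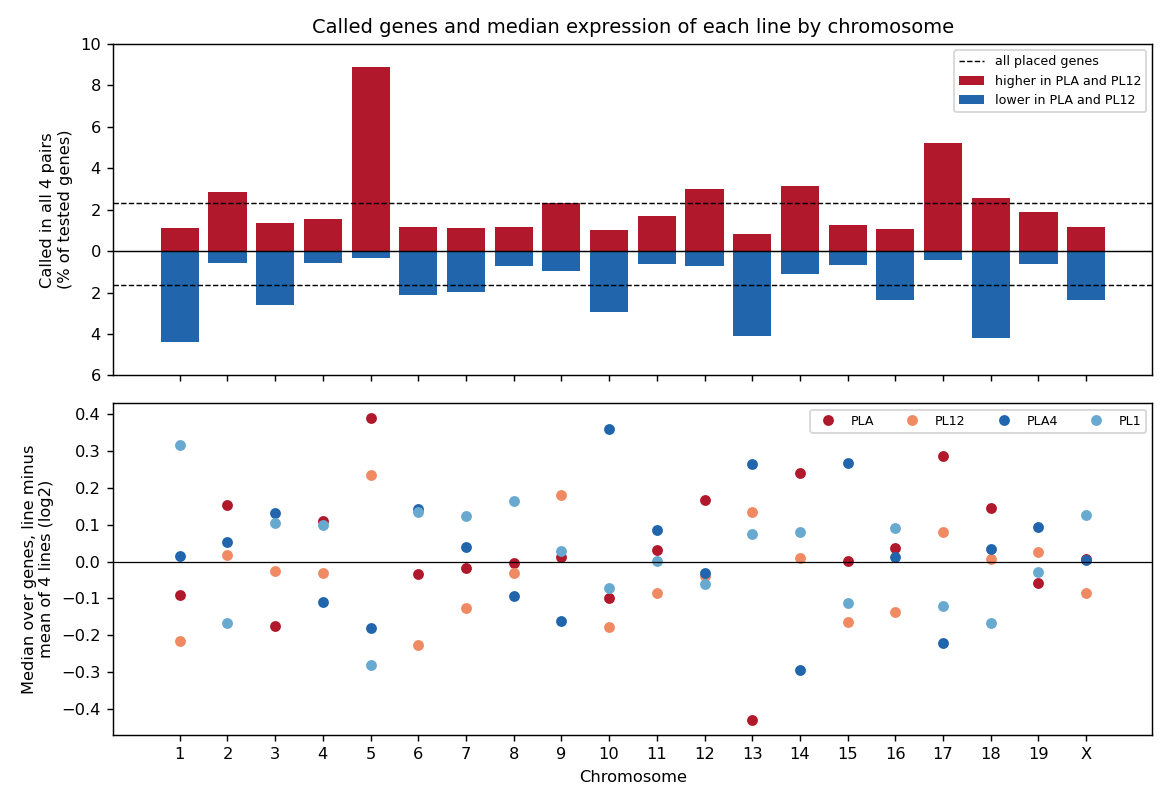
Top, called genes as a share of the genes tested on each chromosome, higher in PLA and PL12 upwards and lower downwards, with dashed lines at the share over all genes with a position (2.32% and 1.62%). Bottom, median over genes of each line's log2 level minus the mean of the 4 lines; on chromosome 5, which has 8.88% of its genes called higher, PLA (0.39) and PL12 (0.23) lie above PLA4 (-0.18) and PL1 (-0.28).

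Neighbouring called genes in the same direction formed 62 runs of at least 2 genes among the genes tested, and 4 runs of at least 4. The runs held 138 of the 734 called genes, and over all genes tested 2.32% were called higher and 1.62% lower. The number of runs to be had from these shares alone was not computed. Many runs lie on chromosome 5, and some are overlapping genes of 1 locus, such as Kbtbd11 with Gm37844 and Rbms3 with Gm17396. Runs of protocadherin genes on chromosome 18 were lower in PLA and PL12. The run from Pcdhb9 to Pcdhb12 (37400855 to 37438654) held 5 called genes and that from Pcdhb2 to Pcdhb5 (37294812 to 37323915) held 4. The clustered protocadherins are surface proteins of which single cells express a few at a time. Pcdhb9 stood at 0.301 and 0.271 CPM in PLA and 1.72 and 2.16 CPM in PL12, against 16.5 and 18.2 CPM in PLA4 and 15.6 and 11.4 CPM in PL1. Pcdhb12 stood at 1.15 and 1.30 CPM in PLA and 0.696 and 0.588 CPM in PL12, against 10.7 and 8.92 CPM in PLA4 and 11.6 and 9.35 CPM in PL1. Pcdhb10 stayed under 0.5 CPM in every library. Reads of these near-identical genes can be split between them. A run on chromosome 5 (92603041 to 93045022) held Stbd1, Ccdc158, Shroom3 and Sowahb, all higher. Stbd1, which binds glycogen, stood at 184 and 190.1 CPM in PLA and 39.9 and 36.3 CPM in PL12, against 17.1 and 15.5 CPM in PLA4 and 14.1 and 23.9 CPM in PL1. Shroom3, which drives apical constriction of epithelial cells, stood at 169.9 and 169 CPM in PLA and 115 and 131 CPM in PL12, against 24.1 and 43.8 CPM in PLA4 and 19.3 and 40.6 CPM in PL1. Sowahb, an ankyrin-repeat protein, stood at 75.1 and 75.5 CPM in PLA and 53.7 and 50.8 CPM in PL12, against 15.5 and 11.02 CPM in PLA4 and 9.38 and 12.4 CPM in PL1. Ccdc158 held 2 counts in the 4 libraries of PLA4 and PL1 and at most 0.355 CPM elsewhere. A run on chromosome 7 (92643543 to 92844535) was lower and held Pcf11, which ends transcripts, Rab30, a Golgi GTPase, and 2 genes without a plain symbol. Rab30 stood at 9.24 and 9.43 CPM in PLA and 4.99 and 5.26 CPM in PL12, against 29.7 and 32.3 CPM in PLA4 and 27.6 and 19.9 CPM in PL1.

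With the line as the unit of replication, the split was also fitted on counts summed over the 2 libraries of each line, 2 lines against 2. Of 18859 genes tested, edgeR's quasi-likelihood test called 0, with a lowest adjusted p of 0.516, while 1501 (7.96%) had an unadjusted p under 0.05. DESeq2 called 764 on the same sums. The calls over 8 libraries thus rest on the spread between the libraries of a line, not on that between lines.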

How the data were processed

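Total RNA of 4 mouse LUSC lines, 2 libraries each, was extracted with a column kit and turned into SMARTer cDNA and Nextera XT libraries, per the labels' protocols. STAR, RSEM, FastQC and DESeq2 on GRCm38 are listed, without versions, in the submitters' processing notes. The authors deposited expected counts per gene, in which 14.2% of the values are not whole, and TPM per gene, per the file headers. The libraries held 48857960 to 142458281 rounded counts.

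Expected counts were rounded and tested with edgeR 4.0.16 (quasi-likelihood, TMM, filterByExpr with a minimum count of 10, 8 libraries, 1 coefficient per line, 4 residual degrees of freedom) in R 4.3.3. P-values were adjusted over all 18648 genes tested (Benjamini-Hochberg). Each line pair, both comparisons within a side and their difference were contrasts of 1 fit. The test returns no SE, so the SE of a contrast was derived as the absolute log2 fold change over the square root of its F statistic. It is approximate and unreliable at low counts. CPM were TMM-scaled. Fold changes beside CPM are ratios of side means over lines, and 3 counts in a library were taken as the floor of a level. The deposited TPM, which stem from the same reads, were used on a log2 scale with a pseudocount of 1 to compare directions. On this scale 6981 genes had the same sign in all 4 pairs, 6444 of them shared.

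The members, the gene lists and the rules for naming genes were chosen with earlier results of these data known. Genes named were, in each direction, the 14 called genes with the largest smallest fold change over the pairs, a mean of at least 5 CPM, every library of a side above every library of the other and a plain symbol. Named as well were up to 4 called members of a list and members needed to describe it, the genes nearest to the threshold, those with the largest differences within a side, and the longest runs of neighbours. Positions come from GENCODE M21 on GRCm38, which matched 18626 of the genes tested when ID versions were dropped. Promoter letters come from RefSeq.

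Replicate numbers were checked for pairing: deviations of same-numbered libraries from the line means correlated at -0.194 to 0.0148 across genes, so the numbers were not taken to pair libraries. Alternatives were DESeq2 1.42.0, its size factors, upper-quartile scaling, no filter and a stricter filter, the replicate block, TPM, a 2-fold minimum and leaving out libraries. The fits were tested on simulated data with the same spread in all lines. The simulation therefore does not cover the wider spread of the PLA4 and PL1 libraries.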

Additional observations from a re-analysis of the deposited data

Results flagged for a closer look

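Among the genes named for a wide difference within a side, the difference of PLA minus PL12 was often not that of PLA4 minus PL1. This was tested as an interaction in edgeR's quasi-likelihood model over the 8 libraries, with p-values adjusted over all genes. Values below are the first log2 difference minus the second. Genes named for other reasons are left out, among them Bmp3 (5.54, adjusted p = 0.0179), Tgm1 (-2.32, adjusted p = 0.00539) and Kcnj15 (1.56, adjusted p = 0.00576). Cldn34c1 (7.57, adjusted p = 0.00372), Cdx2 (5.65, adjusted p = 0.00766), Sting1 (4.44, adjusted p = 0.00581), Ccdc102a (3.84, adjusted p = 0.00479) and Cdh13 (3.14, adjusted p = 0.0311) had a larger difference of PLA over PL12 than of PLA4 over PL1. In Cdx2, Ccdc102a and Cdh13 the line PLA4 was far below PL1, whereas Cldn34c1 had 0 counts in PL12 and Sting1 was higher in PLA than in PL12. The values of Cldn34c1, Cdx2 and Cdh13 rest on a line under the floor of 3 counts per library (PL12 in the first, PLA4 in the others) and are no measure of size.

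The opposite sign was found in Bst1 (-5.82, adjusted p = 0.0158), Sostdc1 (-5.69, adjusted p = 0.00637), Adh7 (-5.44, adjusted p = 0.00151), Gcnt3 (-5.28, adjusted p = 0.0367), Rftn2 (-3.76, adjusted p = 0.0364), Notch3 (-3.21, adjusted p = 0.0363) and Fstl1 (-3.03, adjusted p = 0.00570). Bst1, Sostdc1 and Gcnt3 were mainly lower in PLA than in PL12, while Adh7, Rftn2, Notch3 and Fstl1 were mainly higher in PLA4 than in PL1. These genes are members of the split whose level differs between the 2 lines of a side more than on the other side, which the way they were named favours.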

How the results depend on the processing

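The 734 genes called in all 4 pairs became 449 with a 2-fold minimum in each pair and 1124 with DESeq2's Wald test (717 shared with the 734). Leaving out 1 library gave 148 to 1085, with 148 to 188 where it came from PLA or PL12 and 596 to 1085 where it came from PLA4 or PL1. Without PL1 replicate 1 and PLA4 replicate 2, which leaves 1 library in each of these lines, 2173 genes were called, and without PL1 replicate 2 and PLA4 replicate 1, 3149; the lone library is then taken to vary like the other lines, which are the close pairs of PLA and PL12. Genes with the same sign in all 4 pairs numbered 5757 to 10018 over all alternatives, within 1.5 times of 7123. PLA against PL12 went from 7035 called genes to 2459 to 8564 on leaving out 1 library and to 12499 and 12497 without the 2 pairs. PLA4 against PL1 went from 1593 to 3739 with DESeq2, to 199 to 2648 on leaving out 1 library and to 8639 and 7378 without the 2 pairs. The summed profiles gave 0 calls with edgeR, 764 with DESeq2 and 209 with no filter. With upper-quartile scaling the calls were 403 higher and 342 lower. The share of higher called genes on chromosome 5, an analysis added after seeing the data, was 13.7 to 33% over the alternatives. Counts of called genes per list stayed within 1.5 times in 439 of 765 recomputed values and moved further in 326; counts of list members with the same sign in all pairs were likewise added after seeing the data. Of 115 named called genes, 31 kept the call in all 16 alternatives, 84 lost it in at least 1 and 0 reversed. The cause of these changes was not tested.

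With the replicate block, 494 genes were called in all 4 pairs (485 shared) and 547 between PLA4 and PL1; the replicate numbers do not pair the libraries. Depth limits low genes: levels of 0.0614 CPM and under rest on at most 3 counts in the shallowest library.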
